A study of Mus musculus with 10 samples.

Results

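Heat shock proteins and their co-chaperones were taken here as the protein-coding genes whose symbol begins with Hsp, Dnaj or Bag in the way these families are named, Hspg2 (a matrix proteoglycan) left out, with a mean of at least 0.1 FPKM over the 10 lungs. FPKM is the number of fragments on a gene scaled by its length and by the library size. Of 80 such genes, 76 reached that level and form the members described below, among 20448 genes that reached it in all. They comprise 14 HSP70 and HSP110 proteins, 3 HSP90 proteins, the chaperonin pair, 7 small heat shock proteins, 4 DNAJA, 12 DNAJB and 26 DNAJC proteins, 6 BAG proteins and 2 HSP-binding proteins. Just inside the threshold stood Dnajc22 at 0.128 FPKM (1 to 8 reads per lung) and just outside stood Dnajc5b at 0.0449 FPKM (at most 3 reads). Hspb3, Dnajc5g and Dnajb8 were also outside, and Dnajb8 had 0 reads in all 10 lungs.

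The lungs came from wild-type C57BL/6J mice operated on at postnatal day 7 and collected at postnatal day 30. The IPF group (increased pulmonary flow, 5 mice) received an aortocaval fistula, a needle hole that lets aortic blood pass straight into the inferior vena cava. The sham group (5 mice) had the same anaesthesia and abdominal opening without the puncture. Whole lung was frozen and its mRNA was sequenced, 1 library per mouse with no pooling stated, so each value averages over every cell type of the lung, and a smaller number of cells of a type and less RNA per cell cannot be told apart.

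Chaperones bind unfolded or partly folded proteins and help them reach or regain their shape. HSP70 does so in cycles of ATP hydrolysis that J-domain proteins of the DNAJ families start and that HSP110 and BAG proteins end by exchanging the nucleotide, while HSP90 finishes kinases, steroid receptors and other clients handed on from HSP70. Under heat or proteotoxic stress, heat shock factor 1 binds heat shock elements in the promoters of the cytosolic chaperones and raises their transcription, whereas chaperones of the endoplasmic reticulum answer to the unfolded protein response.

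Between 15483046 and 19026843 reads on genes stood behind each lung, and no pair of libraries of the same group agreed within sampling noise. Surfactant, alveolar, endothelial and airway genes marked all 10 samples as lung. Limma called 0 of 5 such genes different (0 at an unadjusted p under 0.05, and 1, lower, by limma voom on reads recovered from the FPKM values). For Sftpb all 5 IPF lungs were still below all sham lungs (2.77% of all genes did so), with a log2 fold change of −0.24 (adjusted p = 0.305). The airway gene Scgb1a1 was at −1.12 (adjusted p = 0.317). The groups differed in genes that mark sex, although the methods describe pups of both sexes and the labels give no sex: Xist lay between 26.8 and 43.2 FPKM in the IPF lungs and at most 0.0767 in the sham lungs, and 4 genes of the Y chromosome were at 0 in every IPF lung, so the operation and sex, as these genes mark it, cannot be told apart. They also differed in clock genes, with Arntl, Npas2, Clock and Nfil3 called higher in IPF, 4 of 5 genes listed as activators of the clock or in phase with them (Cry1 was not called), and 10 of 10 genes listed as repressors or clock outputs called lower. Cardiac muscle genes such as Myh6 were high in 1 lung of each group. Myh6 was at 18.7 FPKM in IPF replicate 4 and 15.3 in sham replicate 3, against at most 0.148 FPKM in the others. Actc1 was also highest in these lungs (58.0 and 60.8 FPKM), but lay between 15.4 and 51.8 FPKM in the others.

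The sequence before the start site is shown for 4 inducible members whose fold changes are among the largest positive ones below. Hspa12b, the called member with the smallest adjusted p, which was lower, is shown as well. All were picked by their values in these data, and the part of heat shock factor 1 was not tested. The sequences are RefSeq windows of build GRCm38.p6, printed 5′ to 3′ on the strand of the gene, the 250 bases before the start. Capitals mark a pair of inverted heat shock element cores, GAANNTTC or TTCNNGAA, each of which reads the same on either strand. Hspa1a lies at chr17:34972157-34972406 and Hspa1b at chr17:34959239-34959488, both on the minus strand. The first of the 2 Hsph1 windows is chr5:149636337-149636586 on the minus strand. Dnaja1 (chr4:40722218-40722467, the first of its 3 windows) and Hspa12b (chr2:131127162-131127411) are on the plus strand.
Hspa1a: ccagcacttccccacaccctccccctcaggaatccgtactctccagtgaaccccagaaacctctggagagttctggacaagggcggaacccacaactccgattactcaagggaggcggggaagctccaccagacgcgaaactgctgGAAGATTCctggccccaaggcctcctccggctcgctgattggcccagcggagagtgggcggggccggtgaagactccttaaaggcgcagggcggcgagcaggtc
Hspa1b: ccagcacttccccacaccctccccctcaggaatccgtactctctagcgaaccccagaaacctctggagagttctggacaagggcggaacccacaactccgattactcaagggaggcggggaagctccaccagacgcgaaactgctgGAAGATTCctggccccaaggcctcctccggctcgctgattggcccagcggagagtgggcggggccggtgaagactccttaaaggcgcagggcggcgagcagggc
Hsph1: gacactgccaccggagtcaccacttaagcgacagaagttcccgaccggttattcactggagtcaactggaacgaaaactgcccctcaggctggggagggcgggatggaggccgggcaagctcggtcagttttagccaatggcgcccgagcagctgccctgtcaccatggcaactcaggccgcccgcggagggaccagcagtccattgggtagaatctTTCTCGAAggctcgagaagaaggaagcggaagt
Dnaja1: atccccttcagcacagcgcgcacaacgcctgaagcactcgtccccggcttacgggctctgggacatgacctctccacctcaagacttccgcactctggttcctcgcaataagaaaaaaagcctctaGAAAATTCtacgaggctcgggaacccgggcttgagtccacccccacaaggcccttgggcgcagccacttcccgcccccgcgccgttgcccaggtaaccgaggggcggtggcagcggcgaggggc
Hspa12b: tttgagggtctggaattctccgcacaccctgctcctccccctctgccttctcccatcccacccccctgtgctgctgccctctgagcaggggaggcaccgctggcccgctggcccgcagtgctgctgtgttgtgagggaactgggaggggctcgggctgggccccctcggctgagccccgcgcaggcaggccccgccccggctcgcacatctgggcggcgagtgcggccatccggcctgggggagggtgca
The windows of Hspa1a and Hspa1b differ at 3 of the 250 positions, and the marked pair begins 104 bases before the start in both. It begins 33 bases before the start in the Hsph1 window shown, and the same pair lies 54 bases before the start in the second Hsph1 window. In Dnaja1 it begins 124 bases before the start of the window shown, while the other 2 Dnaja1 windows hold 0 pairs. The Hspa12b window holds none.

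With the 50 bases after the start included, 62 of the 76 members had a window and 15 of them (24.2%) held a pair of cores, against 14.2% of the 12576 tested genes with a window. A run of 3 cores (GAANNTTCNNGAA or TTCNNGAANNTTC) was found in 4 members (6.45%), against 0.565% of the tested genes and 0.603% of all 32851 windows in the table. These members are Hspd1, Hspe1, Dnajb6 and Hsph1, and the Hspd1 and Hspe1 windows overlap on opposite strands, so that 1 element of their shared promoter is counted for both genes. A gene was counted where any of its windows held the letters. Counted in this way, the pair was present in 3 of 3 members with a window that rose in IPF (for Dnaja1 in 1 of its 3 windows), in 1 of 2 that fell and in 11 of 57 (19.3%) that were not called. Among chaperones known as targets of heat shock factor 1 it was present in 10 of 12, and among those of the endoplasmic reticulum in 1 of 7. A match describes these letters only and is not a measured binding site. No window was at hand for Hspa8, Hsp90aa1 and Hsp90ab1.

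The comparison of IPF with sham asks which chaperone transcripts differ after a fistula made at postnatal day 7. In IPF 4 members rose and 2 fell, at an adjusted p under 0.05 by limma. Hspa8, Hspa1b, Hsph1 and Dnaja1 were the 4 that were higher (5.26% of the members, against 3.71% of all genes tested), and Hspa12b and Hspb8 were the 2 that were lower (2.63%, against 2.14%). In all, 6 of 76 were called (7.89%), against 5.85% of all genes, a share near the background. With an absolute log2 fold change above 1 asked for as well, Hspa1b alone remained (1.32% of the members, against 1.14% of all genes). The 5 IPF lungs lay above all sham lungs for 1 member, Hspa8 (4.52% of all genes did so), and below all of them for 1 member, Hspa12b (2.77% of all genes). The median log2 fold change was 0.06 over the members and 0.00 over all genes, and 44 members (57.9%) lay above 0 and 32 below, against 50.4% of all genes above 0. At an unadjusted p under 0.05, 13 members were higher (17.1%, against 11.2% of all genes) and 6 lower (7.89%, against 8.3%). Limma voom on reads recovered from the FPKM values called 6 members higher (7.89%, against 4.11% of all genes) and 3 lower (3.95%, against 3.05%).

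The number of called members depended on single lungs. Without IPF replicates 1 to 5 in turn it was 2, 1, 6, 2 and 15 of 76 (2.63%, 1.32%, 7.89%, 2.63% and 19.7%), while limma called 4.03%, 3.85%, 5.57%, 3.66% and 7.92% of all genes in the same fits. Without sham replicates 1 to 5 in turn it was 3, 2, 1, 7 and 1 (3.95%, 2.63%, 1.32%, 9.21% and 1.32%), against 4.46%, 4.22%, 3.90%, 4.42% and 4.83% of all genes. The share of the members was below that of all genes in 7 of these 10 fits. Hspa12b was called in all 10 of these fits. Without both lungs high in cardiac genes, an alternative chosen after seeing the data, Hspa12b and Hspb7 were called, both lower, and 0 members were called higher, a share of 2.63% of the members against 1.77% of all genes.

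**Figure D1:**
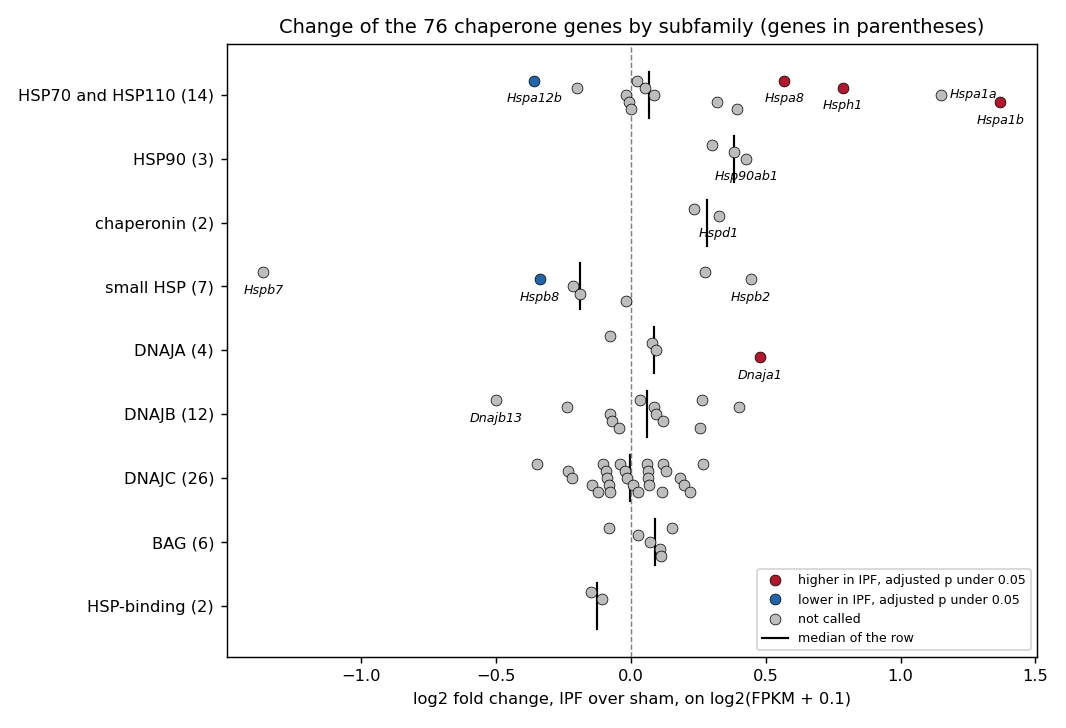
Each point is 1 of the 76 genes, placed by its log2 fold change of IPF over sham on the log2(FPKM + 0.1) scale, with subfamilies in rows, the number of genes in parentheses and a black line at the median of the row. The 3 genes of the HSP70 and HSP110 row that rose and Dnaja1 stand to the right in red, Hspa12b and Hspb8 to the left in blue, and the 26 DNAJC genes spread evenly around 0.

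Nearly all listed targets of heat shock factor 1 had a positive fold change, while the rest of the family was evenly split. The list holds Hspa8 and Hsp90ab1, the constitutive cytosolic forms, beside stress-inducible ones. Of 15 members listed as targets of heat shock factor 1, 4 rose, 1 fell (Hspb8) and 14 had a positive log2 fold change. Their median was 0.33. Over all genes tested, limma called 3.71% higher and 2.14% lower, and 50.4% were above 0. Of the other 61 members, 0 rose and 1 fell (Hspa12b) by limma, 30 were positive and 31 negative, and the median was 0.00. At an unadjusted p under 0.05, 10 of the 15 were higher and 1 lower, against 3 higher and 5 lower among the other 61. Over all genes 11.2% were higher and 8.3% lower at that limit. Limma voom on recovered reads called 6 of the 15 higher and 1 lower, and 0 of the 61 higher and 2 lower. It called 4.11% of all genes higher and 3.05% lower. The summed level of the 15 was 1460 ± 229 FPKM in IPF and 1079 ± 102 in sham (SD, n = 5 each). Hsp90ab1 (mean 525 FPKM in IPF and 385 in sham, not called by limma) and Hspa8 (437 and 295) made up most of both sums. They also made up most of the difference between the sums. For the other 61 the sums were 1160 ± 59.3 and 1078 ± 38.7 FPKM. The list was written from general knowledge but with earlier results of these data known, so the contrast between the 15 and the 61 is a description.

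By level, a small number of genes made up most of the family. Hsp90ab1 had a mean of 455 FPKM, 19.1% of the sum over the members, followed by Hspa8 at 366, Hspa5 at 161, Hsp90b1 at 135, Bag1 at 120, Hsp90aa1 at 115 and Hspb1 at 105 FPKM. These 7 genes at or above 100 FPKM held 61.0% of the sum. Another 29 members lay between 10 and 100 FPKM, 33 between 1 and 10, and 7 under 1. The summed level of all 76 was 2620 ± 284 FPKM in IPF and 2157 ± 115 in sham (SD, n = 5 each).

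Hspa8 encodes the constitutive HSP70 of the cytosol (ENSMUSG00000015656, chromosome 9 of GRCm38, 40800984 to 40810087). It measured 403, 456, 419, 528 and 380 FPKM in IPF replicates 1 to 5 and 259, 315, 271, 366 and 265 in sham replicates 1 to 5. Every IPF lung was above every sham lung, though IPF replicate 5 and sham replicate 4 came close to each other. IPF exceeded sham by a log2 fold change of 0.57 ± 0.12 (SE), adjusted p = 0.0200 by limma. The call was lost without IPF replicate 2, IPF replicate 4, sham replicate 3 or sham replicate 5, with an adjusted p of at most 0.0575.

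Hspa1b and Hspa1a encode the stress-inducible HSP70, nearly absent from unstressed cells, from 2 near-identical copies side by side on chromosome 17 (34956436 to 34959238 and 34969190 to 34972156). Hspa1b measured 12.4, 10.9, 7.08, 16.4 and 5.51 FPKM in IPF and 3.31, 3.78, 3.11, 6.60 and 2.69 in sham. Sham replicate 4 stood above IPF replicate 5, and the other 4 IPF lungs were above all sham lungs. In log2 terms the change was 1.37 ± 0.30 (SE), adjusted p = 0.0232, and in means the level was 2.68 times that of sham. Hspa1a measured 7.64, 5.96, 4.17, 9.71 and 4.19 FPKM in IPF and 2.92, 3.23, 1.68, 4.76 and 1.70 in sham, with replicate 4 again the highest of each group. Its log2 fold change was 1.15 ± 0.31, adjusted p = 0.0564, which missed the limit. It passed in 5 of 12 alternatives to the model or filter, with an adjusted p of 0.00343 with the replicate number as a block, 0.0327 by limma voom, 0.0333 with protein-coding genes only, 0.0341 with array weights and 0.0407 with a mean FPKM of at least 1. It also passed without IPF replicate 5 (0.0425) or sham replicate 4 (0.0326). Reads that fit both copies can have been assigned to either one, and with the copies summed, chosen after seeing the data, the log2 fold change was 1.29 and the adjusted p 0.0297. The call of Hspa1b held without IPF replicate 3, IPF replicate 5 or sham replicate 4 and was lost without any one of the other 7 lungs (adjusted p at most 0.0669).

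Hsph1 encodes HSP110 (ENSMUSG00000029657, chromosome 5, 149614287 to 149636376), a nucleotide exchange factor of HSP70 that also takes part in dissolving aggregates. It measured 14.8, 17.5, 16.5, 19.5 and 9.82 FPKM in IPF and 9.30, 8.76, 7.17, 11.7 and 7.71 in sham. As for Hspa1b, IPF replicate 4 and sham replicate 4 were the highest of their groups, IPF replicate 5 was the lowest IPF lung, and only it fell among the sham lungs. Its log2 fold change was 0.79 ± 0.18 (SE), adjusted p = 0.0272. The call held without IPF replicate 5 (adjusted p 0.00259) or sham replicate 4 and was lost without any one of the other 8 lungs, with an adjusted p of at most 0.0762.

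Hspa12b encodes an atypical HSP70 found mainly in endothelial cells (ENSMUSG00000074793, chromosome 2, 131127280 to 131146321). It measured 32.5, 29.9, 27.9, 31.4 and 31.8 FPKM in IPF and 37.7, 43.0, 38.5, 40.1 and 37.5 in sham. All 5 IPF lungs were below all 5 sham lungs, with a clear gap between the groups. Hspa12b fell by a log2 fold change of −0.36 ± 0.06 (SE), adjusted p = 0.00592, which is the smallest among the members. Pecam1, which marks endothelial cells, had a log2 fold change of −0.05 (adjusted p = 0.753), at 156 to 189 FPKM in IPF and 163 to 189 in sham. Hspa12b overlaps the gene Gm11037 on the same strand over 719 bases, and Gm11037 had a mean of 2.57 FPKM.

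The other 10 members of the HSP70 and HSP110 group were not called. Hspa5, the HSP70 of the endoplasmic reticulum, had a log2 fold change of 0.39 (adjusted p = 0.158) and 185 ± 41.8 FPKM in IPF against 138 ± 9.81 in sham (SD, n = 5 each). Hspa4l, an HSP110 relative, was at 0.32 (adjusted p = 0.201), while its relative Hspa4 at 36.8 FPKM was at 0.00 (adjusted p = 1). Hspa9, the mitochondrial HSP70, was at 0.02. Hspa13, Hspa14, Hspa2, Hspa12a and Hspa1l had log2 fold changes between −0.20 and 0.09. For the single genes of this and the later paragraphs an exact permutation test over all ways to choose 5 of the 10 lungs was also run, two-sided and unadjusted. The smallest p that 5 against 5 allows, 0.00794, was reached by Hspa8 and Hspa12b alone among the 76 members.

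**Figure D2:**
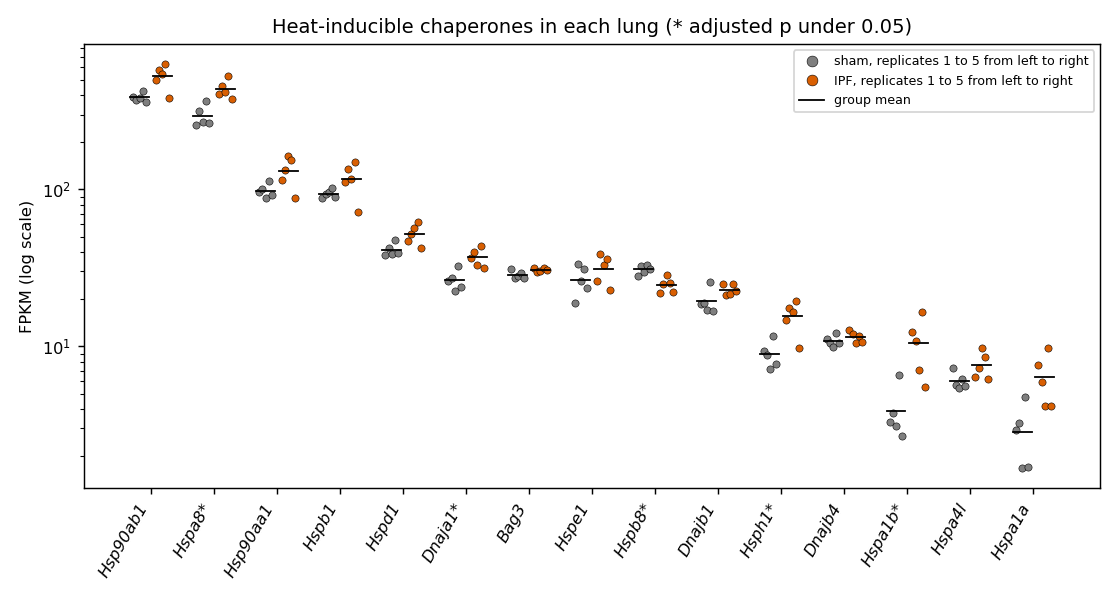
Points give the FPKM of each lung on a log axis for the 15 chaperones listed as targets of heat shock factor 1, sham in grey and IPF in orange, replicates 1 to 5 from left to right within a group, with black lines at the group means and an asterisk at an adjusted p under 0.05. The fourth point is the highest and the fifth the lowest of the IPF points for Hspa8, Hsph1, Hspa1b and Dnaja1.

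All 3 HSP90 genes had positive log2 fold changes, and 0 passed the limma test. All 3 had an unadjusted p under 0.05, and limma voom on recovered reads called 1, Hsp90ab1. Hsp90ab1, the constitutive cytosolic HSP90, measured 495, 575, 542, 628 and 384 FPKM in IPF and 386, 374, 384, 425 and 359 in sham. The first 4 IPF lungs were above all sham lungs, and IPF replicate 5 lay inside the sham range. The log2 fold change was 0.43 ± 0.13 (SE), adjusted p = 0.0764. Without IPF replicate 5 it was 0.54 with an adjusted p of 0.00640, and the limit was passed in 3 of 12 alternatives to the model or filter. Hsp90aa1, the inducible form, was at 0.38 (adjusted p = 0.185; 0.0207 without IPF replicate 5). Hsp90b1, the HSP90 of the endoplasmic reticulum, was at 0.30 (adjusted p = 0.1004; 0.0163 without that lung). IPF replicate 5 was the lowest IPF lung for all 3. None of the 3 passed when any other single lung was left out. The adjusted p then reached 0.171 for Hsp90ab1, 0.345 for Hsp90aa1 and 0.216 for Hsp90b1.

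The chaperonin of the mitochondrion folds proteins inside a barrel of HSP60 (Hspd1) with a lid of HSP10 (Hspe1), which are encoded head to head from a shared promoter. Hspd1 measured 46.9, 51.8, 57.0, 62.4 and 42.6 FPKM in IPF and 38.0, 42.6, 39.1, 47.6 and 39.4 in sham. Replicates 2, 3 and 4 of IPF were above all sham lungs, and replicates 1 and 5 were inside the sham range. The log2 fold change was 0.33 ± 0.10 (SE), adjusted p = 0.0995, and 0.0309 without IPF replicate 5 or 0.0415 with the replicate number as a block. IPF replicate 5 was the lowest IPF lung, and leaving out any other single lung gave no call (adjusted p up to 0.204). Hspe1 had a log2 fold change of 0.23 (adjusted p = 0.516). The 2 genes overlap on opposite strands over 112 bases.

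Among the 42 J-domain proteins, Dnaja1 was called and the other 41 were not. Dnaja1 is a farnesylated cytosolic J protein that works with HSP70 (ENSMUSG00000028410, chromosome 4, 40722150 to 40737149). It measured 36.4, 40.2, 33.0, 43.5 and 31.7 FPKM in IPF and 26.1, 27.3, 22.5, 32.7 and 24.0 in sham. Only IPF replicate 5 fell below the highest sham lung, replicate 4. Dnaja1 rose by a log2 fold change of 0.48 ± 0.11 (SE), adjusted p = 0.0296, and the call held without IPF replicate 3, IPF replicate 5 or sham replicate 4 and was lost without any one of the other 7 lungs (adjusted p at most 0.0803). Its 608 bases of overlap with Smu1 lie on the opposite strand.

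The related Dnaja2, at 47.4 FPKM on average the most abundant DNAJA gene, had a negative log2 fold change, −0.08 (adjusted p = 0.436). It measured 43.4, 44.1, 47.6, 47.2 and 48.3 FPKM in IPF and 46.4, 49.3, 48.4, 50.5 and 48.6 in sham, and the groups overlap. Dnaja3, the mitochondrial DNAJA protein, was at 0.09 and Dnaja4 at 0.08.

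Of the 12 DNAJB genes, 7 were above 0 and 5 below, and limma called 0 (1 higher and 2 lower at an unadjusted p under 0.05, and 0 by voom). Dnajb1 is the heat-inducible cytosolic partner of HSP70. It measured 24.8, 21.3, 21.7, 24.9 and 22.5 FPKM in IPF and 18.7, 18.9, 17.1, 25.7 and 16.9 in sham. Sham replicate 4 was the highest of all 10 lungs, and the other 4 sham lungs were below every IPF lung. The log2 fold change was 0.25 (adjusted p = 0.216), and 0.36 with an adjusted p of 0.0201 without sham replicate 4. Leaving out any other single lung gave no call (adjusted p up to 0.367). Dnajb4, another target of heat shock factor 1, was at 0.09 (adjusted p = 0.568).

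Dnajb11, a J protein of the endoplasmic reticulum and the most abundant of the DNAJB group, had a log2 fold change of 0.03 (adjusted p = 0.840). It measured 30.9, 38.3, 32.4, 36.6 and 30.8 FPKM in IPF and 33.1, 33.7, 31.4, 33 and 33.3 in sham, with IPF lungs both above and below all sham lungs. Dnajb9, which the unfolded protein response induces, was at 0.09 (adjusted p = 0.529). Dnajb13, a radial spoke protein of motile cilia and sperm tails, had the lowest log2 fold change of the group at −0.50 (adjusted p = 0.175). The adjusted p reached 0.332 when other single lungs were left out, with no call, and was 0.0322 without IPF replicate 3. That lung had the highest level of the IPF group (2.98 FPKM against 1.35 to 2.09) and the highest summed level of 8 ciliated cell genes (111 FPKM). These 8 genes, 0 of them called by limma, at an unadjusted p under 0.05 or by voom and all 8 below 0, ranged in sum from 28.6 to 111 FPKM in IPF and from 32.0 to 64.1 in sham, with Foxj1 at 7.24 FPKM or more in every lung. Their part in the difference of Dnajb13 was not tested.

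The 26 DNAJC genes split evenly, 13 above 0 and 13 below, and limma called 0 (1, lower, at an unadjusted p under 0.05, and 0 by voom). Only Dnajc18 reached an adjusted p under 0.05 when a single lung was left out (−0.27, adjusted p = 0.0483 without IPF replicate 5). Dnajc3, an inhibitor of stress kinases and a co-chaperone of the endoplasmic reticulum, was the most abundant. It measured 56.9, 61.3, 56.7, 63.0 and 59.6 FPKM in IPF and 60.7, 58.9, 51.1, 53.2 and 61.4 in sham, with groups that overlap and a log2 fold change of 0.06 (adjusted p = 0.649). Dnajc8, a J protein associated with splicing, was at 0.06, and Dnajc10, a disulfide reductase of the endoplasmic reticulum, at −0.09. Over the whole group, 24 of 26 lay within 0.25 of 0 on the log2 scale.

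Small heat shock proteins hold unfolding clients without ATP. Of the 7 members, 1 fell and 0 rose by limma, and 5 were below 0. At an unadjusted p under 0.05, 1 was higher and 2 were lower, and limma voom called 0 higher and 2 lower, Hspb8 and Hspb7. Hspb8, which works with Bag3 in clearing damaged proteins in muscle and other cells, measured 22.0, 25.1, 28.3, 25.2 and 22.3 FPKM in IPF and 28.1, 32.5, 29.99, 33.2 and 31.1 in sham (ENSMUSG00000041548, chromosome 5, 116408491 to 116422864). IPF replicate 3 just exceeded sham replicate 1, and the other 4 IPF lungs were below all sham lungs. Hspb8 had a log2 fold change of −0.34 ± 0.08 (SE), adjusted p = 0.0267. The call held without IPF replicate 3, IPF replicate 5 or sham replicate 1 and was lost without any one of the other 7 lungs, with an adjusted p of at most 0.0685.

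Hspb1 (HSP27), the most abundant small heat shock protein, measured 111, 135, 116, 150 and 72.3 FPKM in IPF and 87.6, 93.6, 96.9, 102 and 89.2 in sham. IPF replicate 5 was the lowest of all 10 lungs, and the other 4 IPF lungs were above every sham lung. The log2 fold change was 0.27 ± 0.16 (SE), adjusted p = 0.390, and 0.44 with an adjusted p of 0.0190 without that lung. Leaving out any other single lung gave no call (adjusted p up to 0.621).

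Hspb7, a small heat shock protein of the heart and blood vessels, had the lowest log2 fold change of the family, −1.36 ± 0.40 (SE), adjusted p = 0.0742. It passed the limit with limma voom on recovered reads (−1.43, adjusted p = 0.0274) and with protein-coding genes only (adjusted p = 0.0455). It measured 0.721, 0.693, 1.80, 3.19 and 0.735 FPKM in IPF and 3.31, 3.20, 5.35, 2.52 and 2.27 in sham. IPF replicate 4 and sham replicate 3, the lungs with Myh6 above 15 FPKM, were the highest of their groups. Over all cardiac markers 0 of 7 tested were called by limma, at an unadjusted p under 0.05 or by voom. Their sum ranged from 17.0 to 162 FPKM in IPF and from 26.7 to 146 in sham. Nppa, below the level tested, was at 0 in every lung of both groups except sham replicate 1 (0.0701 FPKM). Of 6 smooth muscle genes 5 were below 0, with a median of −0.20, and Smtn was called lower (−0.26, adjusted p = 0.0495), while Myh11 was at −0.35 (adjusted p = 0.280), and 0 were called by voom. Their sum ranged from 126 to 234 FPKM in IPF and from 149 to 185 in sham, and their part in the difference of Hspb7 was not tested. Without the 2 lungs high in cardiac genes the log2 fold change of Hspb7 was −1.52 and the adjusted p 0.0423. Without IPF replicate 4 alone they were −1.70 and 0.0188. When other single lungs were left out Hspb7 was not called (adjusted p up to 0.170).

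Hspb2, a muscle small heat shock protein, was the opposite case, with a log2 fold change of 0.44 (adjusted p = 0.0671) and 5.13 ± 0.93 FPKM in IPF against 3.72 ± 0.47 in sham (SD, n = 5 each). It overlaps Cryab on the opposite strand over 1030 bases. Cryab, the αB-crystallin, had a mean of 148 FPKM and a log2 fold change of 0.02, and whether strand was used in counting is not given in the sources used here. Hspb6 was at −0.19 (adjusted p = 0.568). Of the 4 muscle small heat shock proteins tested, 1 fell, and the median was −0.26.

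BAG proteins release the client of HSP70 and link it to other pathways. Of the 6 genes, limma called 0 (0 at an unadjusted p under 0.05, and 0 by voom), 5 were above 0, and their median was 0.09. Bag1, the most abundant, measured 127, 125, 119, 116 and 144 FPKM in IPF and 90.3, 128, 118, 116 and 120 in sham, with groups that overlap and a log2 fold change of 0.15 (adjusted p = 0.435). Bag3, a target of heat shock factor 1 and the partner of Hspb8, was at 0.11 (adjusted p = 0.278) and varied little, at 30.8 ± 0.87 FPKM in IPF and 28.6 ± 1.58 in sham (SD, n = 5 each). Bag6, which guards proteins bound for membranes, was at −0.08.

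Hspbp1, an exchange factor that inhibits HSP70, and Hspbap1, which binds Hspb1, were both below 0. Hspbp1 measured 13.2, 11.4, 14.9, 11.1 and 9.59 FPKM in IPF and 9.94, 13.6, 14.5, 14.2 and 12.4 in sham. The groups overlapped and the log2 fold change was −0.11 (adjusted p = 0.711). Hspbap1 was at −0.15 (adjusted p = 0.605).

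Grouped by compartment, chaperones of the endoplasmic reticulum showed 0 of 8 called by limma (2 higher at an unadjusted p under 0.05, and 0 by voom) and a median of 0.05. Their 2 most abundant genes, Hspa5 and Hsp90b1, had the largest values, 0.39 and 0.30, while Hspa13, Dnajb9, Dnajb11, Dnajc1, Dnajc3 and Dnajc10 lay between −0.09 and 0.09. Without IPF replicate 5, Hspa5 reached a log2 fold change of 0.53 with an adjusted p of 0.0141. It was not called when any other single lung was left out (adjusted p up to 0.311). Of the 8 mitochondrial chaperones 0 were called (1 higher at an unadjusted p under 0.05, and 0 by voom) and the median was 0.04, with Hspd1 and Hspe1 highest and Hspa9, Dnaja3, Dnajc11, Dnajc15, Dnajc19 and Dnajc30 between −0.04 and 0.09.

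The lungs of 1 group differed among themselves in the same listed targets of heat shock factor 1. IPF replicate 4 was the highest and IPF replicate 5 the lowest IPF lung for all 4 members that rose, and sham replicate 4 was the highest sham lung for all 4. Over the 15 targets of heat shock factor 1, the median difference of each lung from the sham mean was 0.24, 0.52, 0.47, 0.65 and 0.05 on the log2 scale in IPF replicates 1 to 5, and −0.02, 0.03, −0.13, 0.21 and −0.11 in sham replicates 1 to 5. IPF replicate 5 thus lay inside the sham range. Over the other 61 members the same medians lay between −0.03 and 0.08 in IPF and between −0.06 and 0.05 in sham.

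IPF replicate 5 was also the IPF lung nearest to the sham lungs in clock and glucocorticoid genes. For 10 clock repressors and output genes its median difference from the sham mean was −0.96, against −2.21 to −1.72 in the other IPF lungs. For 6 genes induced by glucocorticoids it was −0.50, against −2.11 to −1.49. In neutrophil genes it was instead the IPF lung farthest from sham, with a sum of 280 FPKM, against 47.2 to 67.4 in the other IPF lungs and 11.1 to 66.9 in sham. The cold-inducible Rbm3 and Cirbp had log2 fold changes of −0.49 (adjusted p = 0.0671) and −0.27 (adjusted p = 0.185). Both were lower at an unadjusted p under 0.05, and 1 was called lower by voom. Rbm3 was at 20.3 FPKM in IPF replicate 5 against 12.8 to 14.4 in the other IPF lungs. Cirbp was at 15.7 FPKM there, inside the 12.1 to 15.8 of the other IPF lungs. Of 10 immediate early genes, which respond to stress within minutes, Ier2 and Junb were called higher in IPF (0.28 and 0.31) and 0 lower by limma or by voom, 5 were above 0 and 5 below, and the median was 0.06. The largest differences were negative, −0.77 in Fosb and −0.52 in Fos, 2 of the 3 genes lower at an unadjusted p under 0.05. The part of these differences in the chaperone levels was not tested.

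**Figure D3:**
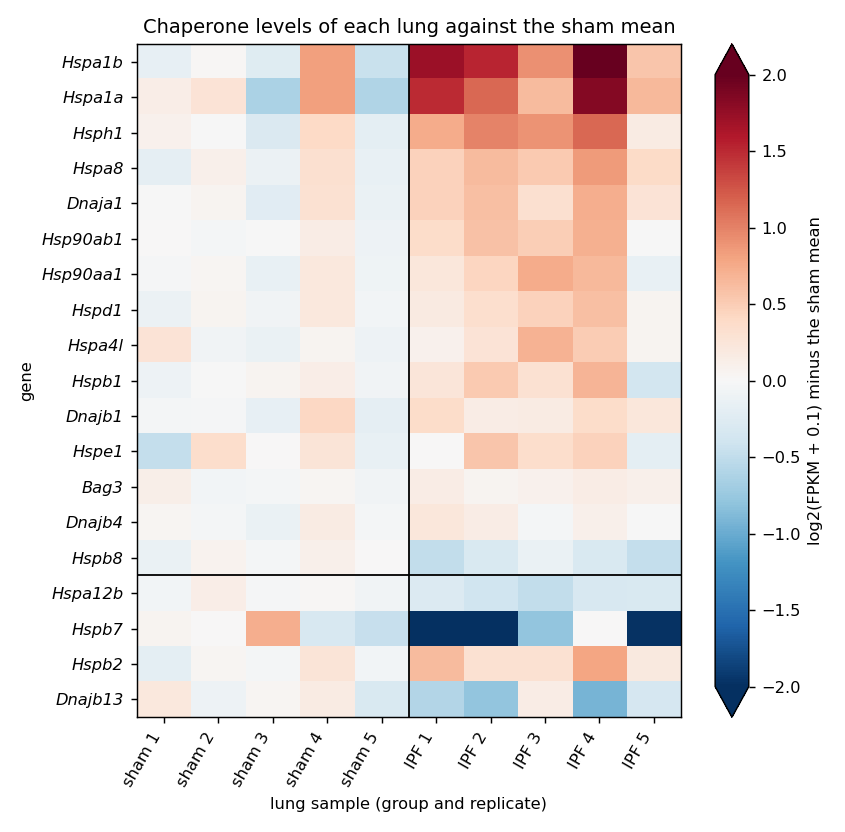
Colours give log2(FPKM + 0.1) of each lung minus the mean of the sham lungs for the 15 targets of heat shock factor 1 (above the line) and 4 other members, with red for higher and blue for lower. The darkest shades also cover larger differences. The IPF replicate 4 column is the reddest for Hspa1b (16.4 FPKM), and the IPF replicate 5 column is pale for most of the 15 targets.

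Genes of the same machinery outside the family were then examined: 46 genes in 5 lists, of which 45 were tested. By limma 4 rose and 2 fell, with 3.71% of all genes called higher and 2.14% lower, and 33 (73.3%) were above 0, against 50.4% of all genes. Cacybp, which links HSP90 to ubiquitin ligases, measured 29.5, 33.1, 26.2, 32.7 and 24.0 FPKM in IPF and 15.6, 21.8, 16.2, 23.9 and 17.2 in sham. All IPF lungs were above all sham lungs, by a narrow margin between IPF replicate 5 and sham replicate 4. Its log2 fold change was 0.63 ± 0.13 (SE), adjusted p = 0.0199. Chordc1, an HSP90 partner induced by heat, was at 0.46 (adjusted p = 0.0165) and stayed called without any single lung. Ptges3 (p23), which stabilises closed HSP90, was at 0.45 (adjusted p = 0.0422), and St13, which stabilises HSP70 bound to ADP, at 0.30 (adjusted p = 0.0444).

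The largest difference of the 45 was in Fkbp5, an immunophilin that holds the glucocorticoid receptor on HSP90 in a form of low affinity and is itself induced by glucocorticoids. It measured 2.07, 1.61, 1.71, 2.08 and 9.11 FPKM in IPF and 18.96, 13.7, 19.3, 14.5 and 14.7 in sham. IPF replicate 5 lay between the other IPF lungs and the sham lungs. Fkbp5 had a log2 fold change of −2.60 ± 0.40 (SE), adjusted p = 0.00373, and called without any single lung. Other glucocorticoid-induced genes were lower as well, among them Tsc22d3 (−1.04, adjusted p = 0.0247) and Zbtb16 (−3.25, adjusted p = 0.0162), while Sgk1 was at 0.02. Ppp5c, a phosphatase of the same complexes, fell by 0.27 on the log2 scale (adjusted p = 0.0326). Its call held in 3 of the 10 fits that leave out a lung (adjusted p at most 0.0838), those of Cacybp, Ptges3 and St13 in 5, 2 and 1. Of 12 alternatives to the model or filter, the call held in 10 for Ppp5c, 12 for Cacybp, 9 for Ptges3 and 7 for St13.

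Other HSP90 co-chaperones did not pass the test, among them Stip1, which joins HSP70 to HSP90 (0.45, adjusted p = 0.0593), and Ahsa1, which activates its ATPase (0.35, adjusted p = 0.0721). The 8 subunits of TRiC, the cytosolic chaperonin, were all above 0, from 0.03 to 0.23, and limma called 0 (4 higher at an unadjusted p under 0.05, and 0 by voom). Of Hsf1, Hsf2, Hsf4 and the binding protein Hsbp1, limma called 0 (0 at an unadjusted p under 0.05, and 0 by voom). Hsf1 had a log2 fold change of 0.10 (adjusted p = 0.458) at 6.19 ± 0.35 FPKM in IPF and 5.76 ± 0.41 in sham (SD, n = 5 each), and Hsf2 was at −0.06.

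**Figure D4:**
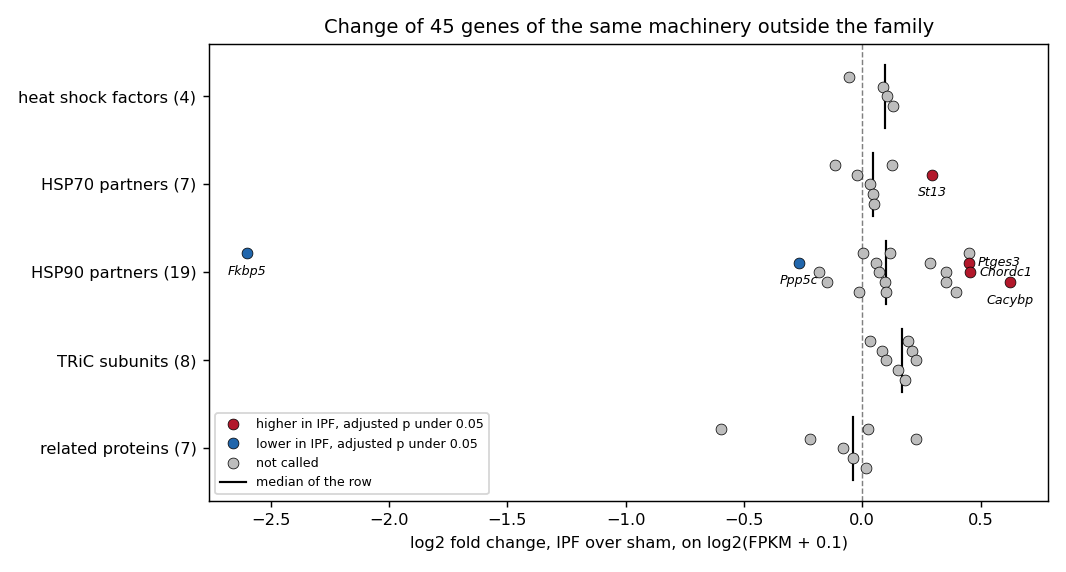
Each point is 1 of 45 genes outside the family, placed by its log2 fold change of IPF over sham on the log2(FPKM + 0.1) scale, with lists in rows and a black line at each median. Cacybp, Chordc1, Ptges3 and St13 stand to the right in red, and Fkbp5 stands far to the left at −2.60.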

How the data were processed

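The authors processed the paired reads with Fastp (trimming), HISAT2 (alignment) and StringTie (quantification). They deposited FPKM values of 54532 genes for each lung, with gene lengths and positions. The methods name GRCm39, the labels list GRCm38 and Bowtie 0.12.2, and the positions fit GRCm38, since one on chromosome 1 reaches 195323493. The paper names a KAPA library kit and the labels NEBNext Ultra. All FPKM values were whole reads times a step per lung (tolerance 0.01 reads, 100% of values), which gave depths of 16250190 to 19026843 in IPF (median 18264357) and 15483046 to 17818542 in sham (median 16386455). FPKM is relative to each library's total, so a change of a few abundant genes shifts the others.

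The 20448 genes that averaged 0.1 FPKM or more went into limma 3.58.1 under R 4.3.3 (trended empirical Bayes, no covariate) on log2(FPKM + 0.1), two-sided, with Benjamini-Hochberg adjustment over all of them; called means an adjusted p under 0.05. The log2(FPKM + 0.1) scale understates changes of low genes. The paper used DESeq2, which was not run here. The recovered reads were tested with limma voom as an alternative. Scripts were tested on simulated data. Exact permutation tests and tables used Python 3.11.15, pandas 2.3.3, numpy 2.4.6 and scipy 1.17.1. Samples were grouped by their labels, and replicate numbers do not pair them. Samples of a group are separate mice as far as the labels say.

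The members, the gene lists and the named genes were chosen with earlier results of these data known. Named are members and related genes with an adjusted p under 0.05, the 3 most abundant members of each subfamily, members of the heat shock factor 1, endoplasmic reticulum, mitochondrial and muscle lists, and those beside the threshold; all 10 values are given for called members with an absolute log2 fold change of at least 0.5 and the most abundant of each subfamily. Hspa12b, Dnaja1, Hspb8, Hspa1a, Hspb7, Dnajb1, Cacybp and Fkbp5 also have all 10 values, a choice made after their values were seen. Members named outside this rule, also after their values were seen, are Dnaja4, Dnajb6, Dnajb13, Dnajc18, Hspa2, Hspa12a and Hspa14. Dnajc12, Dnajc25 and Dnajc27 are named only because a single lung stood apart by Dixon's ratio. Also named after their values were seen are the related genes Hsf1, Hsf2, Hsf4, Hsbp1, Stip1, Ahsa1 and Cryab, which were not called. So are the genes that are neither members nor related genes. Promoters are RefSeq windows from 250 bases before to 50 after each start. Alternatives were other pseudocounts, filters, scalings, variance models and gene sets, a replicate block, voom on recovered reads and leaving out each lung. Other lists gave 1 of 6 smooth muscle genes lower, 3 of 4 lymphoid genes higher, 0 of 3 skeletal muscle, 0 of 2 fat and 0 of 3 red blood cell genes called by limma (0 at an unadjusted p under 0.05 and 0 by voom for these 3), and 0 thymus genes at the level tested.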

Additional observations from a re-analysis of the deposited data

Results flagged for a closer look

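In each group of 5 lungs, the gap between the highest or lowest lung and its nearest neighbour was divided by the range of the group and compared with Dixon's critical value of 0.71. Of 152 groups (76 members in IPF and sham), 8 exceeded it, and chance gives about 1 in 20. For a pair of inducible members it was sham replicate 4 that stood high: Dnajb1 at 25.7 FPKM against 16.9 to 18.9 in the other sham lungs (ratio 0.771) and Hspa1b at 6.60 FPKM against 2.69 to 3.78 (ratio 0.721). Sham replicate 3 stood low for Dnajc25, at 2.61 FPKM against 3.45 to 3.58 (ratio 0.865), and for Dnajb11, at 31.4 FPKM against 33.0 to 33.7 (ratio 0.713). Sham replicate 1 stood low for Dnajc11, at 3.57 FPKM against 3.68 to 3.71 (ratio 0.789), and for Hspa14, at 8.21 FPKM against 9.26 to 9.62 (ratio 0.750). Sham replicate 2 stood high for Dnajc12, at 1.84 FPKM against 1.37 to 1.502 (ratio 0.719). In the IPF group, replicate 2 stood low for Dnajc27, at 3.05 FPKM against 3.69 to 3.87 (ratio 0.784). IPF replicate 5, the lowest IPF lung for most listed targets of heat shock factor 1, did not exceed the value for any member.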

How the results depend on the processing

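Among the called members, Hspa12b was called in 10 of 10 fits that leave out a lung and in 12 of 12 other alternatives, whereas the 4 members called higher were called in 2 to 6 of the 10. When each lung was left out in turn, between 1 and 15 members were called, 0 to 12 of them higher and 1 to 3 lower, while 3.66% to 7.92% of all genes were called, 0 to 2 passed both limits and 2 to 10 of the 45 related genes were called. The lowest counts follow from leaving out IPF replicate 2, sham replicate 3 or sham replicate 5, and the highest from leaving out IPF replicate 5. With a mean FPKM of at least 1, 9 of 69 members were called (13.04%, against 9.55% of all genes), 7 of them higher, and 2 passed both limits. With no variance trend, 3 members were called (3.95%, against 4.69% of all genes), 2 higher and 1 lower, and 3 related genes. Array weights gave 10 called members (13.2%, against 8.55% of all genes), 8 of them higher, 2 past both limits and 11 related genes. Both limits were passed by 3 members with voom on recovered reads and by 3 among protein-coding genes only, where 11.8% of the members were called in both and 7.16% and 9.61% of all genes. Without the 2 lungs high in cardiac genes, chosen after seeing the data, 2 members were called (2.63%, against 1.77% of all genes), 0 of them higher, and 1 related gene, Fkbp5; fewer lungs were compared there. The cause of these differences was not tested.

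Taking the replicate number as a block gave 8 called members (10.5%, against 5.11% of all genes), 2 past both limits, with Hspa1a and Hspd1 added to the 6. The correlations of same-numbered lungs were 0.10, 0.04, 0.03, −0.02 and 0.07, so the numbers do not pair them, and 3 of 5 IPF lungs correlated best with their own number. No called value of a named gene changed sign under any alternative listed. Scaling moved the median of all genes by less than 0.02 (quantile normalization −0.01, median-of-ratios −0.00). Dnaja1 was called in 9 of 12 alternatives to the model or filter. Its call was lost with quantile normalization, with no filter on low values and with no variance trend. Members under 10 reads in a lung, such as Dnajc22 and Dnajb7, are too shallow for small differences to be detected. With 5 lungs a group and 20448 genes tested, several values close to the threshold cross it with 1 lung more or less.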
